A study of Mus musculus with 8 samples.

Results

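The MAP3 kinases described here are 10 genes, Map3k1, Map3k2, Map3k3, Map3k4, Map3k5, Map3k7, Map3k8, Map3k11, Map3k14 and Map3k20, chosen by gene symbol among the 55414 genes listed in the count tables. Their RNA was measured by RNA-seq in neutrophils sorted from the spleen of 4 WT and 4 Cxcr2-/- mice, with 1 library per mouse. Both groups were FVB mice aged 10 weeks in SOPF housing, which keeps specified and opportunistic pathogens out, and the labels name no treatment. In Cxcr2-/- mice the chemokine receptor gene Cxcr2 was disrupted in the germline and the allele was backcrossed to FVB, so the receptor was missing from every cell type of the animal and not only from neutrophils. Cells were enriched with CD11b beads and then sorted as CD45+ CD11b+ Ly6G+ F4/80-. All 10 members passed the filter on low counts, and they were tested among 16778 genes.

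MAP3 kinases stand at the top of the MAP kinase cascades. A receptor or a stress activates a MAP3 kinase, which phosphorylates a MAP2 kinase, which in turn phosphorylates ERK, JNK, p38 or ERK5, and some MAP3 kinases also act on the IkB kinases that release NF-kB. In neutrophils these cascades act downstream of chemokine, cytokine and Toll-like receptors and take part in priming, the oxidative burst, cytokine production and survival.

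The promoter sequences of 4 members are shown to place the genes whose RNA changed most in either direction beside their start sites. They are Map3k3 and Map3k5, which were lower in Cxcr2-/- neutrophils, and Map3k7 and Map3k20, which were higher. The sequences come from RefSeq (GRCm38.p6) and end at or before the start of the gene in the GENCODE annotation. All 4 are on the plus strand and are written 5′ to 3′. Map3k3 is shown at chr11:106084337-106084586, Map3k5 at chr10:19934276-19934471, Map3k7 at chr4:31963857-31964096 and Map3k20 at chr2:72285387-72285636. Capitals mark the letters of the motifs searched, on either strand.
Map3k3: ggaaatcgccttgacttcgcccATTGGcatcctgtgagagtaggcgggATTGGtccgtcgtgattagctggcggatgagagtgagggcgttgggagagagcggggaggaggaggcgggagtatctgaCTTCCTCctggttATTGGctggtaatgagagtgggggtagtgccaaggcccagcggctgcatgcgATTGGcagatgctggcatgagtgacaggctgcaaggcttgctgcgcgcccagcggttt
Map3k5: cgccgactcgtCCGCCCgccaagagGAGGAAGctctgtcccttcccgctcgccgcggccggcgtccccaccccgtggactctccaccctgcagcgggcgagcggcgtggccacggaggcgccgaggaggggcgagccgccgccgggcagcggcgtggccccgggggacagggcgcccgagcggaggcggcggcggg
Map3k7: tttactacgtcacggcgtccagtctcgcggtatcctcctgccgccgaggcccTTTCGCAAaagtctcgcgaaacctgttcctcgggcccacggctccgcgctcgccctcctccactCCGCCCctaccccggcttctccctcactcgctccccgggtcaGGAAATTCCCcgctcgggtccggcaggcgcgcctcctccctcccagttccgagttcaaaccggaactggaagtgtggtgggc
Map3k20: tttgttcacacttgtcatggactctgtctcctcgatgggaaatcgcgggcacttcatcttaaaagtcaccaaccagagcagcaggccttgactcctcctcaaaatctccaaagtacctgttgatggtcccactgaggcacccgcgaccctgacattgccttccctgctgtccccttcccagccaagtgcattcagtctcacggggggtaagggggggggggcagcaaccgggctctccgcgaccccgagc

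In these stretches the capitals in Map3k3 are 4 CCAAT boxes (CCAAT or its reverse complement) and a PU.1 site (GAGGAAG or its reverse complement). Those in Map3k5 are a GC box (GGGCGG) and a PU.1 site, and those in Map3k7 are a C/EBP site (TTGCNNAA), a GC box and a kappa B site. The Map3k20 stretch held none of the motifs searched. The search covered both strands of the 250 bases before each RefSeq start of 8 members, since no window was matched for Map3k2 and Map3k8. Map3k20 had 2 windows, and members are counted below by gene. No base of the 4 printed stretches belonged to more than 1 motif. PU.1 sites were found in 2 of the 8 members (Map3k3 and Map3k5) and in 10.6% of the 32851 windows of all genes. C/EBP and kappa B sites were found in 1 of the 8 (Map3k7 for both) and in 9.56% and 3.9% of all windows. CCAAT boxes lay in Map3k3 and Map3k14 and in 33.8% of all windows, GC boxes in Map3k1, Map3k4, Map3k5, Map3k7 and Map3k14 and in 32.7%, and an Egr site (GCGNGGGCG) in Map3k1 and in 4.7%. The AP-1 site TGANTCA, the cyclic AMP response element TGACGTCA and the TATA box TATAAA were in none of the 8 members and in 6.75%, 1.55% and 12.4% of all windows. The window of Map3k1 was 85.2% G or C, that of Map3k5 80.8% and that of Map3k11, the lowest of the 8, 54.0%, against a median of 52.4% over all windows. A match of letters is a description of the window and was not measured as binding.

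Counts that fell on genes numbered between 34220182 and 46233555 for the WT mice and between 37549648 and 43789253 for the Cxcr2-/- mice. Expression is given as CPM, the counts on a gene relative to the TMM-scaled total of its library (counts per 1 M), as mean ± SD over 4 mice. Log2 fold changes are Cxcr2-/- over WT, and a gene passed the test at an adjusted p under 0.05. The p-values set the difference between the groups against the spread between mice. Cxcr2, the targeted gene, was at 1719 to 2252 CPM in the WT and at 12.9 to 20.7 CPM in the Cxcr2-/- libraries. The neutrophil surface marker Ly6g was detected in all libraries (166 to 263 CPM in WT, 488 to 597 in Cxcr2-/-). Of 12 neutrophil markers, Ly6g and Cxcr2 among them, 8 passed the test as higher and 3 as lower (Cxcr2, Csf3r and Ptprc), and 1 did not pass. Csf3r was at 6504 to 7470 CPM in WT and 3164 to 3513 in Cxcr2-/- libraries, and Ptprc at 4041 to 4550 and 2301 to 2814. Markers of neutrophil precursors and of proliferation, and some markers of other cells, differed between the groups. The summed CPM of 5 precursor granule markers was 4.37 to 17.3 in WT and 70.5 to 386 in Cxcr2-/- libraries, that of 6 proliferation markers 275 to 325 and 860.0 to 965, that of 8 B cell markers 38.6 to 90.9 and 16.7 to 42.1, that of 8 monocyte and macrophage markers 452 to 548 and 213 to 345, and that of 5 dendritic cell markers 9.14 to 28.6 and 5.81 to 8.65. The B cell sums overlapped between the groups, and so did those of 8 T and NK cell markers (98.1 to 118 and 91.8 to 139.9), 8 eosinophil, basophil and mast cell markers (48.8 to 69.5 and 38.2 to 64.7) and 8 red cell and platelet markers (8.28 to 12.0 and 5.42 to 16.0). All 5 precursor and all 6 proliferation markers passed the test as higher, and 7 of 8 B cell markers as lower. All 5 tested eosinophil, basophil and mast cell markers passed, 3 as higher (Epx, Prg2 and Ms4a2) and 2 as lower (Siglecf and Ccr3). The T and NK cell sum was mostly Cd3d (80.1 to 110.1 CPM in WT, 87.3 to 135.5 in Cxcr2-/- libraries). Of the 5 tested markers of that list, 1 was lower (Cd4) and 4 did not pass. The red cell and platelet list also had 1 lower and 4 not passed. Of the 8 monocyte and macrophage markers, whose sum was mostly Csf1r (403 to 499 CPM in WT, 189.6 to 269 in Cxcr2-/- libraries), 2 were lower (Csf1r and Adgre1), 2 were higher (Ccr2 and Mertk) and 4 did not pass. No marker of these lists was at 0 in every library. Adgre1, which encodes the F4/80 protein that the sort excluded, was at 26.6 to 36.5 CPM in WT and 9.60 to 16.3 in Cxcr2-/- libraries. Reads that met no gene were 35.4% to 45.9% in WT and 30.5% to 36.1% in Cxcr2-/- libraries (p = 0.0571 in a two-sided exact permutation test of 4 against 4 mice). They are given as a share of the reads on a gene, on none or ambiguous between genes. The part of the precursor and proliferating cells in the results below was not tested. In bulk samples, fewer cells of a type and less RNA per cell cannot be told apart.

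Of the 10 MAP3 kinases, 5 were lower in Cxcr2-/- neutrophils (Map3k1, Map3k2, Map3k3, Map3k5 and Map3k14), 3 were higher (Map3k4, Map3k7 and Map3k20), and Map3k8 and Map3k11 did not pass the test. Over all 16778 genes, 44.7% passed, 21% as lower and 23.7% as higher. The libraries of the 2 groups did not overlap for any of the 8 members that passed, against 41.6% of all genes without overlap. A change of at least 1.5-fold was reached by 5 members (Map3k3, Map3k5, Map3k7, Map3k14 and Map3k20), against 31.3% of all genes. Map3k14 (1.51-fold) and Map3k7 (1.53-fold) lay just above this threshold and Map3k2 (1.499-fold) just below it. Without the WT replicate 1 library, the number was 3 (Map3k3, Map3k5 and Map3k20). With RLE normalization or DESeq2 it was 6, with Map3k2 added. The median log2 fold change of the 10 was -0.24, against 0.01 over all genes. Upper-quartile normalization shifted the median of all genes by -0.12 and gave 3076 higher and 4391 lower genes in place of 3969 and 3526. It left Map3k7 and Map3k20 as the higher members and kept the same 5 as the lower ones.

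**Figure D1:**
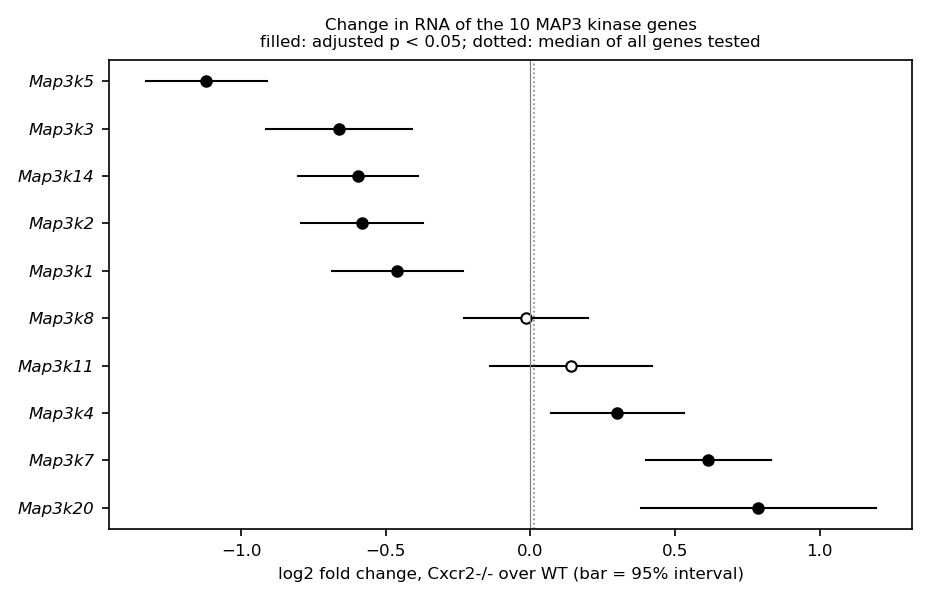
Log2 fold change (Cxcr2-/- over WT, horizontal axis) of the 10 MAP3 kinases, with 95% confidence intervals from edgeR as bars, filled points for an adjusted p under 0.05 and a dotted line at the median of all genes tested. Map3k5 lies lowest at -1.12 and Map3k20 highest at 0.79, and the intervals of Map3k8 and Map3k11 cross 0.

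Map3k5 encodes ASK1, a kinase held inactive by thioredoxin that activates JNK and p38 when the cell is oxidized. The gene (ENSMUSG00000071369) lies on the plus strand at chr10:19934472-20142753 of GRCm38 and has 33 separate exon blocks. Its RNA was at 499.6, 535, 551 and 610.2 CPM in the 4 WT libraries (549 ± 46.1) and at 265, 261, 237 and 247 CPM in the 4 Cxcr2-/- libraries (252 ± 13.0). Every Cxcr2-/- library lay below every WT library, and Cxcr2-/- levels were 2.17-fold lower. The log2 fold change was -1.12 (95% confidence interval -1.33 to -0.91, Benjamini-Hochberg adjusted p = 2.22e-06 in the quasi-likelihood test of edgeR). It was between -1.24 and -1.04 in all 19 alternatives and passed the test in each.

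Map3k3 and Map3k2 encode MEKK3 and MEKK2, 2 closely related kinases that activate the MEK5 and ERK5 cascade as well as JNK and p38. Map3k3 (ENSMUSG00000020700, plus strand, chr11:106084613-106155446, 16 exon blocks) was at 598, 523, 494 and 639 CPM in WT (563 ± 66.6) and at 409, 368, 324 and 325 CPM in Cxcr2-/- libraries (356 ± 40.6). Map3k2 (ENSMUSG00000024383, plus strand, chr18:32163089-32236751, 16 exon blocks) was at 112, 117, 101 and 110.5 CPM in WT (110.2 ± 6.74) and at 69.4, 79.7, 64.1 and 80.8 CPM in Cxcr2-/- libraries (73.5 ± 8.10). Neither gene overlapped between the groups. Map3k3 fell by 0.66 on the log2 scale (interval -0.91 to -0.41, adjusted p = 0.000582 in edgeR's quasi-likelihood test), which is 1.58-fold, and Map3k2 by 0.58 (-0.79 to -0.37, adjusted p = 0.000379). Both passed the test in all 19 alternatives.

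Map3k14 encodes NIK, the kinase that starts the noncanonical NF-kB pathway and that is kept low in resting cells by a complex of TRAF and cIAP proteins. The gene (ENSMUSG00000020941) lies on the minus strand at chr11:103219762-103267472, has 15 exon blocks, and shares 135 exonic bases, or 2.06% of its exons, with a noncoding gene on the same strand. Levels were 71.7, 67.5, 61.2 and 74.9 CPM in WT (68.8 ± 5.91) and 49.8, 40.3, 46.0 and 46.1 CPM in Cxcr2-/- libraries (45.5 ± 3.89), with no overlap. The log2 fold change was -0.60 (interval -0.80 to -0.39, edgeR adjusted p = 0.000291), or 1.51-fold. Map3k1 encodes MEKK1, which activates JNK and ERK and also carries a ubiquitin ligase domain. It lies on the minus strand at chr13:111746428-111808993 (ENSMUSG00000021754, 22 exon blocks) and was at 149, 153, 119 and 149.7 CPM in WT (143 ± 15.7) and at 113, 110.1, 93.6 and 98.3 CPM in Cxcr2-/- libraries (104 ± 9.17). Here the lowest WT library, replicate 3, stood apart from the other 3 and close to the highest Cxcr2-/- library, and the groups still did not overlap. The log2 fold change was -0.46 (interval -0.69 to -0.23, edgeR adjusted p = 0.00321).

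**Figure D2:**
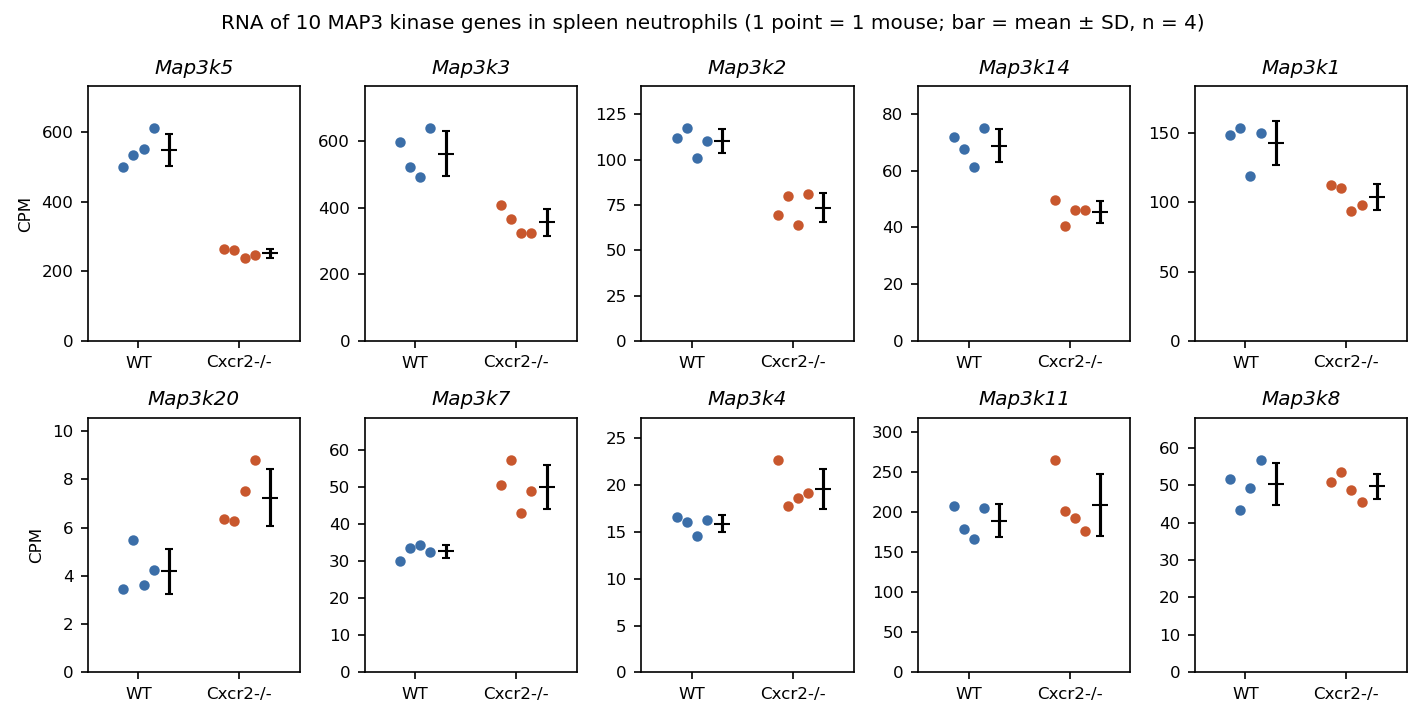
CPM (vertical axis) of each MAP3 kinase in the 4 WT and the 4 Cxcr2-/- libraries, 1 panel per gene. Points are libraries and bars show the mean and SD, with no overlap between groups for 8 genes and overlap for Map3k8 and Map3k11.

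Among the members that were higher in Cxcr2-/- neutrophils, Map3k7 encodes TAK1, which works with TAB proteins downstream of the IL-1, TNF and Toll-like receptors and activates JNK, p38 and the IkB kinases. It lies on the plus strand at chr4:31964097-32023467 (ENSMUSG00000028284, 18 exon blocks). Its RNA was at 30.1, 33.7, 34.3 and 32.4 CPM in WT (32.6 ± 1.85) and at 50.7, 57.3, 43.1 and 48.9 CPM in Cxcr2-/- libraries (49.97 ± 5.88). The groups were well separated, and the log2 fold change was 0.61 (interval 0.40 to 0.83, edgeR adjusted p = 0.000316), or 1.53-fold.

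Map3k20 encodes ZAK, a kinase that senses stalled ribosomes and activates p38 and JNK. It lies on the plus strand at chr2:72285637-72442610 (ENSMUSG00000004085, 22 exon blocks) and had the fewest counts of the 10, between 135 and 273 in WT and between 227 and 362 in Cxcr2-/- libraries. Its levels were 3.45, 5.49, 3.61 and 4.22 CPM in WT (4.19 ± 0.925) and 6.37, 6.28, 7.52 and 8.80 CPM in Cxcr2-/- libraries (7.24 ± 1.18). All Cxcr2-/- libraries were above the highest WT library, with a log2 fold change of 0.79 whose interval was wide, from 0.38 to 1.19 (edgeR adjusted p = 0.00435). Both Map3k7 and Map3k20 passed the test in all 19 alternatives.

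Map3k4 encodes MEKK4, which is switched on by binding Gadd45 proteins and signals to p38 and JNK. It lies on the minus strand at chr17:12227621-12318796 (ENSMUSG00000014426, 30 exon blocks). The levels were 16.6, 16.1, 14.6 and 16.3 CPM in WT (15.9 ± 0.916) and 22.7, 17.8, 18.7 and 19.2 CPM in Cxcr2-/- libraries (19.6 ± 2.15). Although the groups did not overlap, the log2 fold change was only 0.30 (interval 0.07 to 0.53, edgeR adjusted p = 0.0361), and the test was not passed in 15 of 19 alternatives. These included 6 of the 8 fits that left out 1 library, with an adjusted p of 0.0837 without WT replicate 2, 0.126 without WT replicate 3, 0.0657 without WT replicate 4, 0.0977 without Cxcr2-/- replicate 1, 0.0594 without Cxcr2-/- replicate 3 and 0.0712 without Cxcr2-/- replicate 4. With the share of reads outside genes as a term, which went largely with genotype, the adjusted p was 0.652.

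Map3k8 and Map3k11 did not pass the test. Map3k8 encodes TPL2, which is bound by the NF-kB precursor p105 and activates ERK after Toll-like receptor or TNF signals. It lies on the minus strand at chr18:4331327-4353015 (ENSMUSG00000024235, 9 exon blocks), with levels of 51.5, 43.2, 49.3 and 56.7 CPM in WT (50.2 ± 5.58) and 50.9, 53.6, 48.6 and 45.6 CPM in Cxcr2-/- libraries (49.7 ± 3.41). All Cxcr2-/- values fell within the WT range. The interval of its log2 fold change, -0.23 to 0.20 around -0.01, is the range of differences these libraries allow (edgeR adjusted p = 0.917). Map3k11 encodes MLK3, which binds Rac and Cdc42 and activates JNK. It lies on the plus strand at chr19:5688742-5702865 (ENSMUSG00000004054, 14 exon blocks), where 430 exonic bases (9.79%) overlap an antisense gene and 89 bases (2.03%) overlap Pcnx3 on the opposite strand, so part of its counts is uncertain where the counting did not use strand. Levels were 208, 179, 166 and 204 CPM in WT (189 ± 20.1) and 265, 201, 193 and 177 CPM in Cxcr2-/- libraries (209 ± 38.6). Cxcr2-/- replicate 1 was the highest of all 8 libraries, the other 3 lay within the WT range, and the log2 fold change was 0.14 (interval -0.14 to 0.42, edgeR adjusted p = 0.403).

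**Figure D3:**
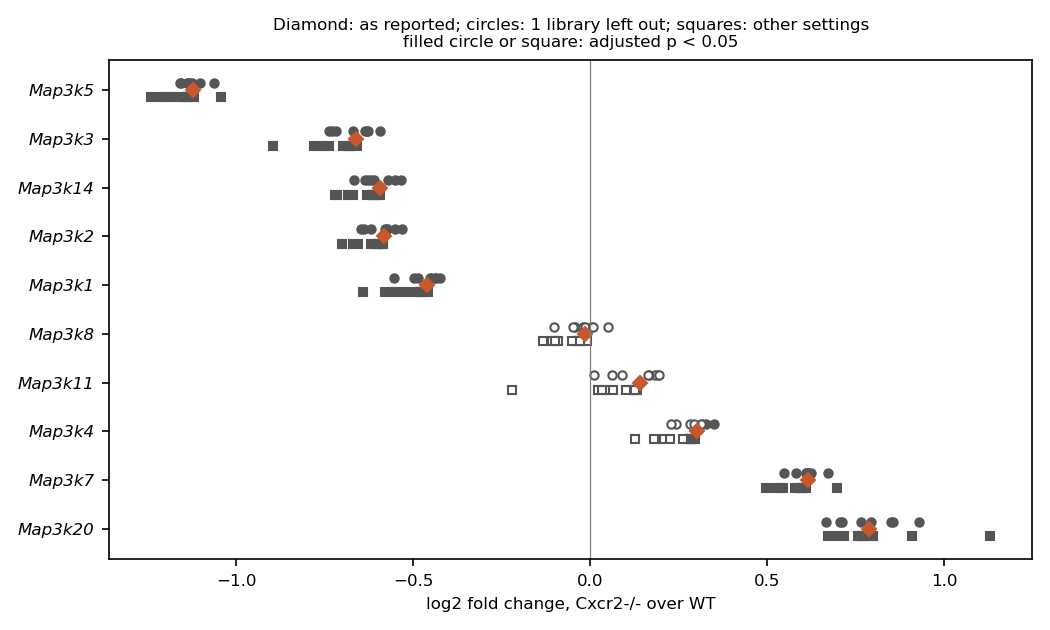
Log2 fold change (Cxcr2-/- over WT, horizontal axis) of each MAP3 kinase as reported (diamonds), with 1 library left out (circles) and under the other alternatives (squares), where filled circles and squares have an adjusted p under 0.05. Of the 10 genes, 7 stay on 1 side of 0 and pass the test in all 19 alternatives, Map3k4 stays above 0 and passes in 4, and Map3k8 and Map3k11 lie around 0.

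To compare the members with each other, CPM was divided by the length of the exons of each gene in kilobases. In WT neutrophils the order was Map3k3 (140.0 CPM per kb), Map3k5 (90.2), Map3k11 (43.1), Map3k1 (19.2), Map3k8 (11.1), Map3k14 (10.5), Map3k2 (7.90), Map3k7 (5.08), Map3k4 (1.56) and Map3k20 (0.412). Of the neighbours in this order, Map3k8 and Map3k14 overlapped between libraries and the others did not. In Cxcr2-/- neutrophils the order was Map3k3 (88.6), Map3k11 (47.6), Map3k5 (41.5), Map3k1 (13.9), Map3k8 (11.0), Map3k7 (7.78), Map3k14 (6.95), Map3k2 (5.27), Map3k4 (1.92) and Map3k20 (0.712), and the neighbours Map3k11 and Map3k5, and Map3k7 and Map3k14, overlapped. Map3k5 lay above Map3k11 in WT neutrophils, also by coding length and by the longest transcript, and overlapped with it in Cxcr2-/- neutrophils. By coding length Map3k5 lay wholly below Map3k11 in Cxcr2-/- neutrophils (55.1 to 61.7 against 68.2 to 102 CPM per kb). The places of the lower members depended on the length used. Map3k7 lay below Map3k14 and Map3k2 in WT and in the range of Map3k14 in Cxcr2-/- neutrophils, but by coding length it lay above Map3k14 there (23.7 to 31.5 against 14.3 to 17.6) and below Map3k2 (34.5 to 43.5), and Map3k2 came 4th in both groups.

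The summed level of the 10 genes was 335, 315, 302 and 365 CPM per kb in the WT libraries (329 ± 27.4) and 255, 229.8, 208 and 208 CPM per kb in the Cxcr2-/- libraries (225 ± 22.6), without overlap. Map3k3 and Map3k5 together made up 69.9% ± 1.07 of this sum in WT and 57.8% ± 0.705 in Cxcr2-/- neutrophils. The share of Map3k5 alone was 24.5%, 27.9%, 30.01% and 27.5% in WT and 17.1%, 18.6%, 18.8% and 19.5% in Cxcr2-/- libraries. Ratios of counts within a library do not depend on the scaling between libraries. The counts of Map3k5 were 16.6, 15.9, 16.1 and 18.8 times those of Map3k7 in WT and 5.24, 4.54, 5.50 and 5.05 times in Cxcr2-/- libraries. Against Map3k8, which did not pass the test, the same ratio was 9.69, 12.4, 11.2 and 10.8 in WT and 5.22, 4.86, 4.88 and 5.41 in Cxcr2-/- libraries. Against Map3k3, the ratio of Map3k5 was 0.836, 1.02, 1.12 and 0.956 in WT and 0.649, 0.708, 0.731 and 0.760 in Cxcr2-/- libraries. The groups were apart in each of these 3 ratios.

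**Figure D4:**
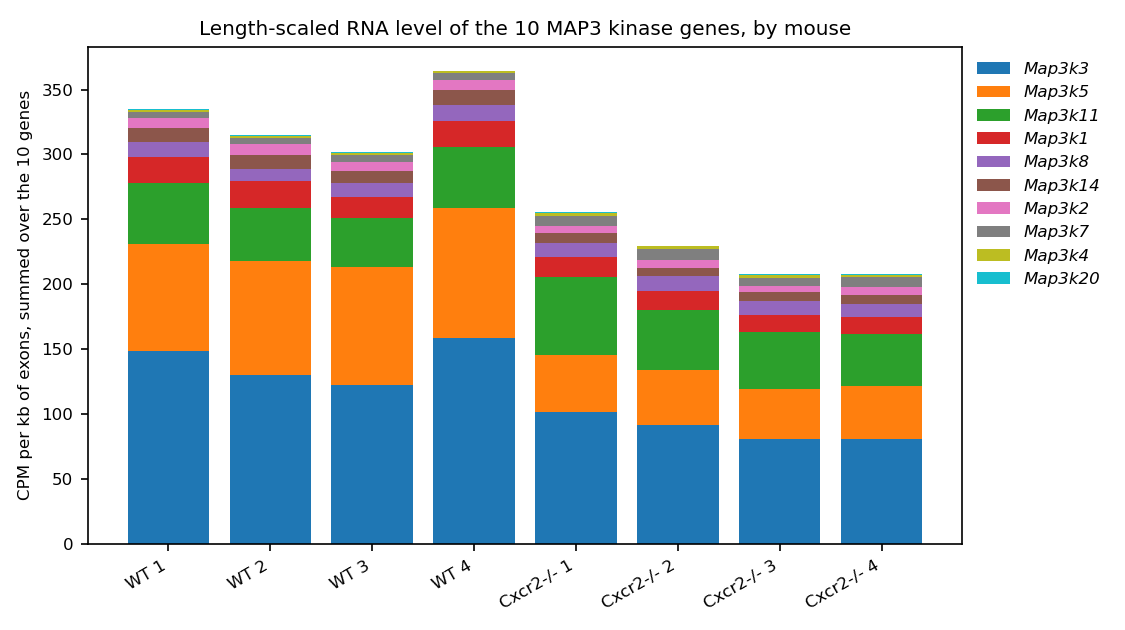
Level per exon length (CPM per kb of exons, vertical axis from 0) of the 10 MAP3 kinases, stacked in 1 bar per mouse. The bars reach 302 to 365 in WT and 208 to 255 in Cxcr2-/- libraries, and Map3k3 and Map3k5, at the bottom, together fill 69.9% of the bar on average in WT and 57.8% in Cxcr2-/- libraries.

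Among the other 15 genes of the MAP3 kinase level, 11 were tested, of which 2 were higher, 4 were lower and 5 did not pass, with a median log2 fold change of -0.08. Map3k15, the ASK family member ASK3, was lower (111 to 133 CPM in WT and 52.2 to 70.7 in Cxcr2-/- libraries, log2 fold change -0.90, edgeR adjusted p = 3.39e-05). Braf, a kinase that acts on MEK, was lower as well, at 223 to 263 CPM in WT and 153 to 193 in Cxcr2-/- libraries (-0.47, edgeR adjusted p = 0.00172). Map3k6 (ASK2, under 1 CPM in every library) and Map3k9 (MLK1, 167 to 189.5 CPM in WT and 185 to 283 in Cxcr2-/- libraries) passed the test as higher with overlapping groups. Map3k6 lost the call when any of WT replicates 1, 3 or 4 or Cxcr2-/- replicates 3 or 4 was left out, with an adjusted p of 0.05 to 0.0811, and Map3k9 when any of WT replicates 1 to 3 or Cxcr2-/- replicate 1 was left out (0.0501 to 0.0702).

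Of 26 partners and regulators of the MAP3 kinases, 7 were higher, 7 were lower and 12 did not pass, with a median log2 fold change of 0.11. Gadd45b and Gadd45a, stress proteins that activate Map3k4, were lower. Gadd45b was at 67.0 to 80.2 CPM in WT and 30.7 to 37.7 in Cxcr2-/- libraries (-1.07, edgeR adjusted p = 2.85e-06), and Gadd45a at 138 to 156 and 97.8 to 112 (-0.49, edgeR adjusted p = 0.000586). Birc2, which encodes the cIAP1 ubiquitin ligase that acts on NIK, fell from 64.8 to 69.8 CPM in WT to 39.1 to 48.2 in Cxcr2-/- libraries (-0.59, edgeR adjusted p = 0.00023). Ppp5c, a phosphatase that acts on ASK1, was higher (5.52 to 7.78 CPM against 12.8 to 14.8, 1.04, edgeR adjusted p = 4.89e-05), and so were Txn2, the mitochondrial thioredoxin (8.53 to 10.6 against 13.4 to 17.9, 0.79, edgeR adjusted p = 0.000283), and the GTPase Rac2 (979 to 1370.3 against 1604 to 2202, 0.65, edgeR adjusted p = 0.002). Txn1, the more abundant thioredoxin of this list, did not pass (245 to 403 against 391 to 430, 0.25, edgeR adjusted p = 0.161).

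Below the MAP3 kinases, 15 of 16 MAP2 and MAP kinases were tested. Of these 6 were higher, 1 was lower and 8 did not pass, with a median log2 fold change of 0.26. Mapk13, which encodes p38 delta, was at 149.97 to 205 CPM in WT and at 307 to 458 in Cxcr2-/- libraries (1.01, edgeR adjusted p = 7.06e-05). Map2k1, which encodes MEK1, and Mapk3, which encodes ERK1, were higher with log2 fold changes of 0.54 (edgeR adjusted p = 0.000676) and 0.53 (edgeR adjusted p = 0.00594). Mapk14, which encodes p38 alpha, was the 1 lower gene (465 to 596 CPM against 378 to 473, -0.34, edgeR adjusted p = 0.0249). Its groups overlapped, and it did not pass without WT replicate 1, WT replicate 4, Cxcr2-/- replicate 3 or Cxcr2-/- replicate 4 (adjusted p 0.06 to 0.0894).

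Of the 5 genes for IkB kinases and noncanonical NF-kB, 1 was higher, 3 were lower and 1 did not pass, with a median log2 fold change of -0.26. Relb, the subunit through which NIK acts on transcription, was at 36.2 to 46.2 CPM in WT and 23.7 to 28.4 in Cxcr2-/- libraries (-0.59, edgeR adjusted p = 0.000674), and Nfkb2, its p100 partner, at 91.8 to 118 and 62.4 to 91.2 (-0.43, edgeR adjusted p = 0.0123). Ikbkb was lower (-0.26, edgeR adjusted p = 0.0256) and Ikbkg higher (0.28, edgeR adjusted p = 0.0355). Ikbkb lost the call in 6 of 19 alternatives, without WT replicate 2 (adjusted p = 0.0529) and without Cxcr2-/- replicate 2 (0.085) among them, and Ikbkg in 14 of 19, without any of WT replicates 1 to 3 or Cxcr2-/- replicates 1 and 2 among them (0.0741 to 0.107).

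Of 8 kinases that the MAP kinases act on, 4 were higher, 2 were lower and 2 did not pass, with a median log2 fold change of 0.03. Mapkapk3 (75.4 to 86.8 CPM in WT, 106 to 173 in Cxcr2-/- libraries, 0.74, edgeR adjusted p = 0.000867) and Rps6ka1, which encodes RSK1 (164 to 206 and 223 to 320.3, 0.54, edgeR adjusted p = 0.0029), were higher. Rps6ka5, which encodes MSK1 (36.6 to 41.6 and 23.0 to 28.7, -0.63, edgeR adjusted p = 0.000181), and Mknk1, a kinase of a translation factor (209.9 to 231 and 135 to 162, -0.57, edgeR adjusted p = 0.000286), were lower. Mapkapk2 passed by little (0.26, edgeR adjusted p = 0.0468) and its groups overlapped. It lost the call in 16 of 19 alternatives, among them the fits without WT replicates 2, 3 or 4 or any Cxcr2-/- replicate (0.0613 to 0.161).

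**Figure D5:**
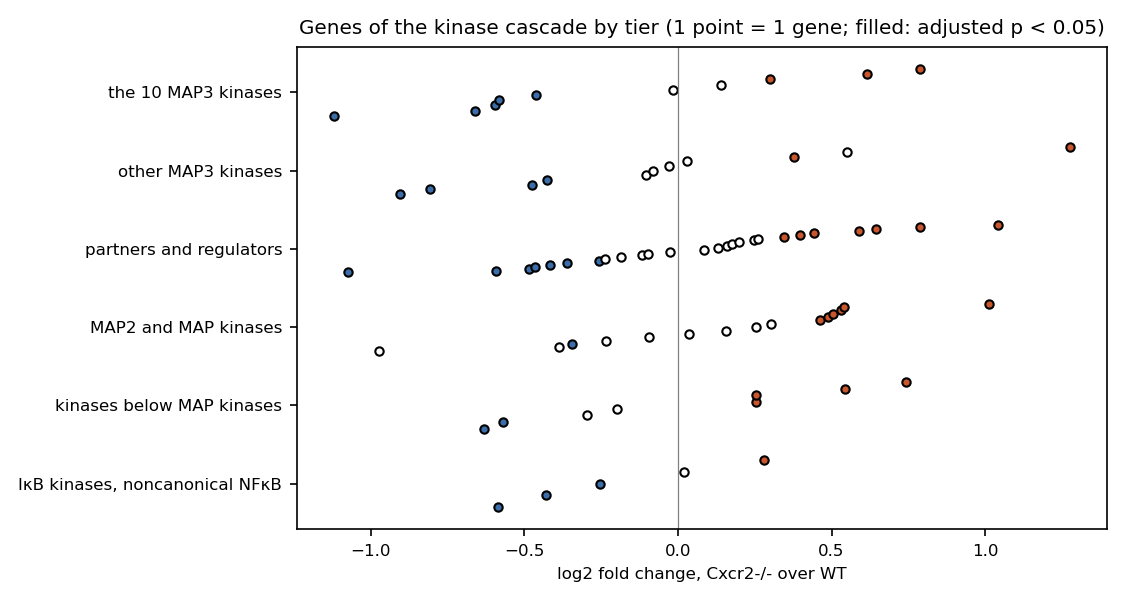
Log2 fold change (Cxcr2-/- over WT, horizontal axis) of the tested genes of each level of the cascade, with 1 point per gene, filled where the adjusted p was under 0.05 (blue lower, red higher). The median is -0.24 for the 10 MAP3 kinases described here, 0.26 for the MAP2 and MAP kinases and -0.26 for the IkB kinases and noncanonical NF-kB genes. It is -0.08 for the other MAP3 kinases, 0.11 for the partners and regulators and 0.03 for the kinases below the MAP kinases, against 0.01 over all genes tested.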

How the data were processed

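RNA of spleen neutrophils from 4 WT and 4 Cxcr2-/- mice was depleted of ribosomal RNA and sequenced from both ends. Reads were trimmed, mapped with STAR to mm10 and assigned to genes with HTSeq by the authors, who deposited unnormalized whole-number counts for each gene. FastQC, HTSeq and mm10 are named in the submitters' processing notes, and the annotation and the strand setting of the counting are not given in the sources used here. Between 64.8% and 70.1% of counts from 1 to 20 were even, against 49.1% to 50.6% of counts over 100. Low counts may therefore hold both mates of a pair, which was not tested. The totals for reads outside genes were kept out of library sizes and used only to describe the libraries and as a covariate.

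Groups and replicate numbers came from the labels. No replicate pair agreed within sampling noise, with a chi-square of 23.9 to 99.0 per gene. Symbols, positions and exon lengths came from GENCODE M21 (GRCm38), which held 52133 of the 55414 listed genes. Exon blocks are the merged exons of all transcripts of a gene. Counts were tested in R 4.3.3 with edgeR 4.0.16 (quasi-likelihood test, TMM, filterByExpr, Benjamini-Hochberg adjustment over all genes tested). The common biological coefficient of variation was 0.202. DESeq2 1.42.0, the tool of the study's methods, was an alternative, as were RLE and upper-quartile normalization, total-count scaling, no filter, at least 10 counts in every library, a replicate block, a covariate for non-neutrophil markers, protein-coding genes only, and each library left out in turn. Halved counts and a term for the share of reads that met no gene were added after seeing the data. The steps were tested on simulated data. Depth sets the counting error of the lowest member, Map3k20, with 135 counts in its lowest library.

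The members and gene lists were chosen with earlier results of these data known. Named genes are all members and, of each other list of the cascade, up to 3 genes in each direction with an adjusted p under 0.05 and the largest change. Other genes are named besides as checks of the cells, chosen after their values were seen. They are Cxcr2, Ly6g, Csf3r, Ptprc, Adgre1, Csf1r, Ccr2, Mertk, Cd3d, Cd4, Epx, Prg2, Ms4a2, Siglecf and Ccr3. Txn1 is named beside Txn2, also after its values were seen. Some of the genes that fall under this rule are not reported here.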

Additional observations from a re-analysis of the deposited data

Results flagged for a closer look

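Within each group of 4 libraries, the CPM of the members and named genes was checked for a lowest or highest value far from the others by Dixon's criterion. Of 68 groups, 2 had such a value, and chance gives about 1 in 20. Map3k1 in WT replicate 3 was at 119 CPM, below the other 3 WT libraries at 149 to 153 CPM. Relb in Cxcr2-/- replicate 2 was at 23.7 CPM, below the other 3 Cxcr2-/- libraries. Both genes kept their lower call without that library.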

How the results depend on the processing

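Map3k1, Map3k2, Map3k3, Map3k5, Map3k7, Map3k14 and Map3k20 kept their direction and passed the test in all 19 alternatives, with adjusted p-values of at most 0.0227. Map3k4 did so in 4 of 19, with log2 fold changes of 0.13 to 0.35. Map3k11 turned to -0.22 with the share of reads outside genes as a term, and Map3k8 ranged from -0.10 to 0.05 when 1 library was left out, higher in Cxcr2-/- without WT replicate 1, WT replicate 4 or Cxcr2-/- replicate 4. The cause was not tested. Leaving out 1 library gave 3 to 6 members with at least 1.5-fold change, 3426 to 3774 higher genes and 3062 to 3520 lower genes. With the share of reads outside genes as a term, 1782 genes were higher and 1600 lower, and Map3k4, Map3k6, Map3k9, Braf, Rac2, Map2k1, Mapk3, Ikbkb, Ikbkg, Nfkb2, Mapkapk2, Mapkapk3 and Rps6ka1 lost their call (adjusted p 0.0919 to 0.935). This share went largely with genotype (35.4% to 45.9% in WT, 30.5% to 36.1% in Cxcr2-/- libraries). The fit therefore has less power and cannot tell the share and the genotype apart. The labels do not say whether same-numbered mice were handled as pairs. The correlations of same-numbered libraries were 0.164, -0.197, 0.285 and -0.332. Those of the other pairs of a WT and a Cxcr2-/- library ran from -0.306 to 0.326, so the correlations do not settle it. The replicate block gave 3719 higher and 3349 lower genes and the same 3 higher and 5 lower members, and Ikbkb, Ikbkg and Map3k6 missed the threshold under it (adjusted p 0.051, 0.0502 and 0.0574). By coding length Map3k5 took 19.0% of the summed level in WT and 12.3% in Cxcr2-/-, and Map3k3 44.4% in WT. By the longest transcript Map3k5 took 17.3% and Map3k3 38.4% in Cxcr2-/-. The main values were 27.5%, 18.5%, 42.5% and 39.3%.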
